A study of Sus scrofa with 16 samples.

Results

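PLAC1, GCM1, PDPN and SFN are genes whose products are known from trophoblast or from epithelia like it. They were followed across 4 stages of pig conceptus elongation, each through the 1 cDNA probe that carries its symbol in the platform annotation. They are 4 of 638 genes named by probes with 1 symbol, and 4 of 1015 probes: PLAC1 is probe 79, GCM1 probe 8, PDPN probe 875 and SFN probe 803, with NCBI Gene identifiers 100359357, 414910, 100738269 and 733625. The measurements come from cDNA macroarrays, on which radioactive (phosphorus-32) target made from amplified embryo RNA binds to spotted clone products. The 16 arrays hold 4 each of small spherical embryos, 1 to 5 mm long, of large spherical ones, 6 to 11 mm long, of tubular ones of 13 to 45 mm and of filamentous ones longer than 100 mm. The labels name no treatment, and nothing in them says if arrays of one stage stand for different litters or for pools, so an SD or p-value measures only the spread between these samples, which may be technical. The 4 genes were chosen by name with their stage levels on these same arrays known, that is, partly selected on their intensity differences between small spherical and later embryos. Levels and stage differences of the 4 are therefore a description, given with their errors and without a p-value.

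The outer layer of the conceptus is the trophectoderm, which becomes the trophoblast of the placenta and which, in the pig, elongates into a thread and attaches to the uterine epithelium without invading it. PLAC1 is a placenta-enriched secreted or membrane-bound protein, encoded on the X chromosome and needed for normal placental growth in the mouse. GCM1 is the transcription factor that drives formation of the syncytiotrophoblast, the fused cell layer of mouse and human placenta; the pig placenta keeps a cellular trophoblast. PDPN, podoplanin, is a mucin-type membrane glycoprotein that binds ezrin and moesin and acts on the actin cytoskeleton through RHOA. It is found on several epithelia and also on lymphatic endothelium and mesothelium. SFN is 14-3-3 sigma, the epithelial member of the phosphoserine-binding 14-3-3 proteins, a target of p53 that holds cyclin B complexes in the cytoplasm.

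The deposited values are linear intensities, with array medians of 62.8 to 71.4. On the first principal component of all probes (23.2% of the variance) the 3 spherical and tubular arrays numbered 1 read 13.0, 13.9 and 16.3, filamentous replicate 1 read 8.17 and filamentous replicate 4 read 4.25, and the other 11 lay below 0. On the second component (13.9%) small spherical replicate 3 read 2.58 and the other small spherical arrays 9.72 to 14.2. Beside the results they touch stand the values of the 12 arrays numbered 2 to 4, and those after small spherical replicate 3 and filamentous replicate 1 were removed. The label was checked with the epithelial keratins of trophectoderm: KRT18 read 198 to 317, KRT19 60.2 to 175 and KRT8 12.6 to 36.4 over the 16 arrays. LAMB1 and FN1, listed as markers of hypoblast and yolk sac endoderm, had stage means of 216 to 277 and 145 to 191. These readings therefore do not tell trophectoderm from other cells of the embryo. CDX2, GATA2, GATA3, TFAP2C and ELF5 were not analysed here, as no probe with 1 symbol names them.

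PLAC1 had its lowest stage mean in small spherical embryos and its highest in filamentous ones. Its intensity on the small spherical arrays was 10.2, 9.39, 18.4 and 10.5 for replicates 1 to 4. On the large spherical arrays it was 22.4, 21.4, 28.4 and 26.2. Every large spherical array was above every small spherical one. The tubular arrays read 25.2, 35.0, 24.99 and 36.4, and the filamentous ones 17.6, 39.1, 41.5 and 36.4. All tubular arrays and 3 of 4 filamentous arrays were above every small spherical array, and filamentous replicate 1 fell within the small spherical range. From the small spherical to the filamentous stage, mean intensity was 12.1 ± 4.20, 24.6 ± 3.26, 30.4 ± 6.14 and 33.7 ± 10.9 (SD, n = 4).

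The means of PLAC1 thus stand in the order of the stages, but only the first step separates neighbours. The fit gave large minus small spherical a log2 difference of 1.07 ± 0.28 (SE), which is 2.10-fold. Tubular minus large spherical was 0.29 ± 0.28 and filamentous minus tubular 0.09 ± 0.28, both with overlapping arrays. Against small spherical embryos the difference was 1.36 ± 0.28 in tubular and 1.46 ± 0.28 in filamentous ones, or 2.57-fold and 2.75-fold. These contrasts share the 4 small spherical arrays. PLAC1 was the 1 gene of the 4 whose large spherical and small spherical arrays did not overlap, as held in this direction for 3.85% of the 1014 probes that varied. It was also the 1 gene of the 4 with all tubular above all small spherical arrays, as held for 4.54% of probes. No gene of the 4 had all filamentous above all small spherical arrays, as held for 4.54% of probes. These contrasts chose the genes, so nothing is read from the counts.

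The last step of PLAC1 depends on single arrays, in both directions. Filamentous minus tubular was 0.38 ± 0.23 without filamentous replicate 1. It was -0.004 without filamentous replicate 2, -0.03 without filamentous replicate 3 and 0.007 without tubular replicate 3. On the 12 arrays numbered 2 to 4 the filamentous mean was 39.0 ± 2.55 (n = 3), above the tubular mean of 32.1 ± 6.22, and the 3 filamentous arrays exceeded the 3 tubular ones, if narrowly (36.41 against 36.37 for the nearest). On the arrays numbered 1 the order differed: PLAC1 read 10.2, 22.4 and 25.2 up to the tubular stage and 17.6 in filamentous embryos. PLAC1 was also a dim probe, with 3.74% to 30.3% of all probes dimmer on the same array, and no blank feature was known from which to set a floor. An offset of 10 added to every intensity before log2 lowered its filamentous minus small spherical difference to 0.96.

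**Figure D1:**
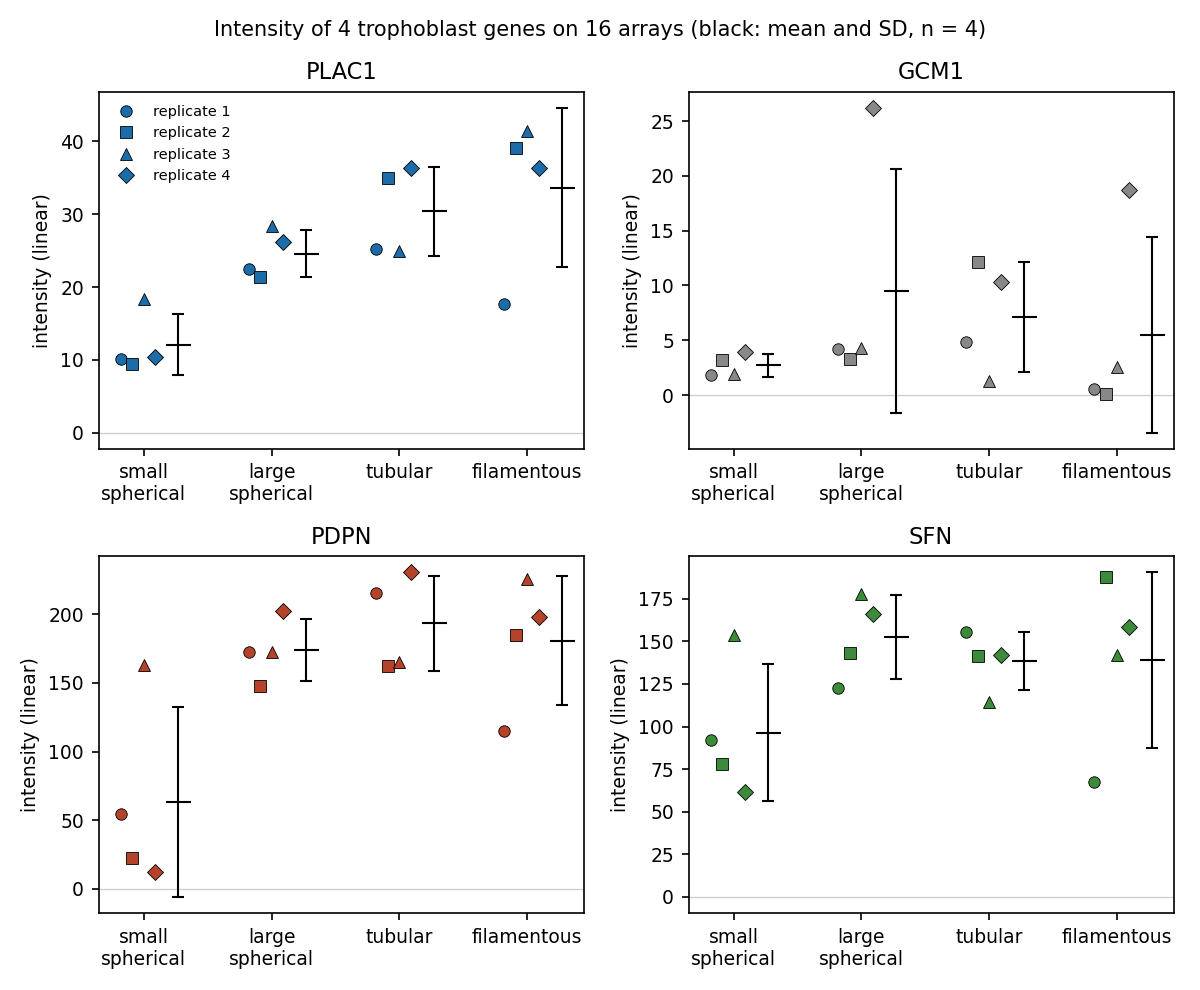
Linear intensity (y axis) of PLAC1, GCM1, PDPN and SFN on the 16 arrays by stage (x axis); each symbol is 1 array with its replicate number, and black marks are the mean and SD of 4 arrays. Small spherical replicate 3 is the highest of its stage for PLAC1 (18.4), PDPN (163) and SFN (154), and filamentous replicate 1 is the lowest of its stage for the same 3 genes (17.6, 115 and 67.2).

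PDPN spread widely in small spherical embryos and had near-level means afterwards. It read 54.8, 22.2, 163 and 12.6 on small spherical replicates 1 to 4. Large spherical arrays read 172, 148, 173 and 203. Small spherical replicate 3 fell among the large spherical arrays, and the other 3 were far below all of them. Tubular arrays read 215, 162, 165 and 230, and filamentous arrays 115, 185, 225 and 198. These overlapped with each other and with the large spherical arrays. Of the 12 later arrays, 9 were above the highest small spherical array and all 12 were above the next highest, 54.8. The stage means were 63.2 ± 69.1, 174 ± 22.4, 193 ± 34.7 and 181 ± 46.9 (SD, n = 4), so the small spherical SD exceeded its mean.

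The fitted PDPN difference between large and small spherical embryos was 2.12 ± 0.55 on the log2 scale, a ratio of geometric means of 4.34. The ratio of the arithmetic means was 2.75, because the single bright array weighs more on that scale. Tubular minus small spherical was 2.26 ± 0.55 and filamentous minus small spherical 2.14 ± 0.55. Later steps were small against their error: 0.14 ± 0.55 for tubular minus large spherical, -0.12 ± 0.55 for filamentous minus tubular and 0.02 ± 0.55 for filamentous minus large spherical. Without small spherical replicate 3 the small spherical mean was 29.9 ± 22.1 (n = 3), and the large minus small spherical difference was 2.80 ± 0.38. Without small spherical replicate 4, the dimmest, it was 1.57 ± 0.47. Over the 3 small spherical arrays other than replicate 3, PDPN spanned 4.34-fold from lowest to highest, against 1.37-fold among the large spherical and 1.42-fold among the tubular arrays. No PDPN value was at the maximum of its array, where values can be saturated.

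SFN resembled PDPN in shape with a smaller difference. Small spherical arrays read 92.3, 78.1, 154 and 61.7. Large spherical arrays read 123, 143, 178 and 166. Here too small spherical replicate 3 lay among the large spherical arrays and the other 3 lay below all of them. Tubular arrays read 155, 141, 115 and 142, and filamentous arrays 67.2, 188, 142 and 159. Filamentous replicate 1 fell within the range of the small spherical arrays. The means were 96.5 ± 40.2, 152 ± 24.5, 138 ± 17.1 and 139 ± 51.5 (SD, n = 4), with the highest mean in large spherical embryos and the 3 later means within 1 SD of each other. That order turned without filamentous replicate 1, when the filamentous mean was 163 ± 23.1 (n = 3), and on the 12 arrays numbered 2 to 4, where it stood beside 162 ± 17.8 in large spherical embryos.

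The fitted SFN difference was 0.73 ± 0.31 for large minus small spherical, 0.60 ± 0.31 for tubular minus small spherical and 0.51 ± 0.31 for filamentous minus small spherical. Without both small spherical replicate 3 and filamentous replicate 1 the last of these was 1.08 ± 0.21. Of the 12 later arrays 5 were above the highest small spherical array, and 11 were above the next highest, the exception being filamentous replicate 1.

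GCM1 was at the dim end of the membrane and gave no order of stages. Small spherical arrays read 1.79, 3.20, 1.91 and 3.91. Large spherical arrays read 4.17, 3.33, 4.34 and 26.2. One large spherical array, replicate 4, was far above the others of its stage. Tubular arrays read 4.86, 12.1, 1.24 and 10.3, and filamentous arrays 0.517, 0.120, 2.52 and 18.8. The filamentous values span from the lowest to the second highest of all 16. The means of 2.70 ± 1.03, 9.51 ± 11.1, 7.12 ± 4.99 and 5.48 ± 8.92 (SD, n = 4) are exceeded by their SDs in the large spherical and filamentous stages. On 13 of 16 arrays fewer than 5% of all probes were dimmer than GCM1, and on filamentous replicates 1 and 2 it was at the array's minimum.

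The arrays of GCM1 overlapped in all 6 contrasts. Large minus small spherical was 1.30 ± 1.20, tubular minus small spherical 1.03 ± 1.20 and filamentous minus tubular -2.0 ± 1.20 on the log2 scale, and filamentous minus large spherical was -2.27 ± 1.20. Single arrays moved these widely: without large spherical replicate 4 large minus small spherical was 0.62. Without filamentous replicate 2 filamentous minus tubular was -0.85 and filamentous minus large spherical -1.12, and without filamentous replicate 4 they were -3.28 and -3.55. Filamentous minus small spherical was -0.96 ± 1.20, although the arithmetic mean was higher in filamentous embryos by a ratio of 2.03. The sign of that comparison therefore depends on the scale, and with an offset of 10 before log2 it was 0.14. Intensities on each array lie on a grid of shared values, and on large spherical replicate 4 the GCM1 value of 26.2 was held by 14 probes, PLAC1 among them.

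**Figure D2:**
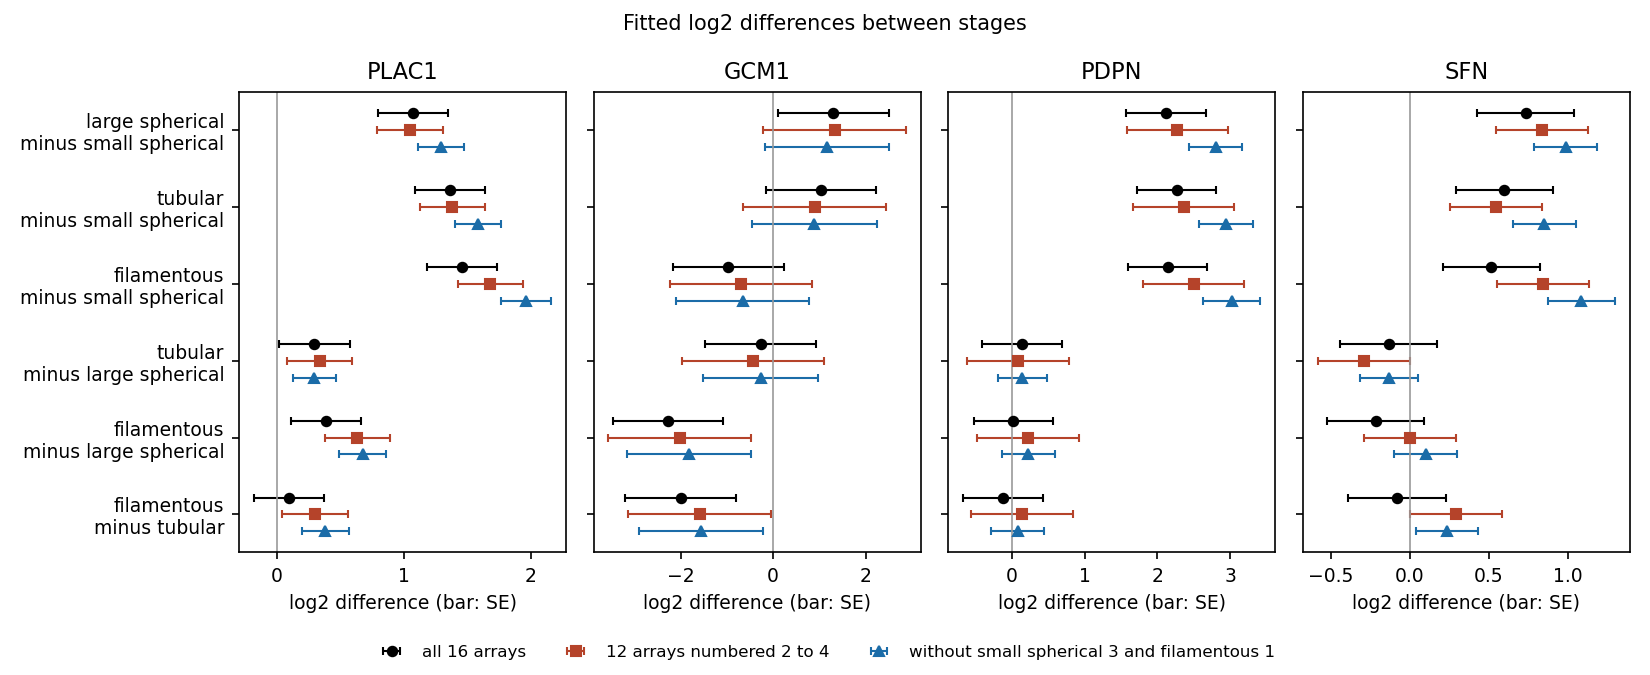
Fitted log2 differences between stages (x axis, bars are SE) for each gene, from all 16 arrays, from the 12 arrays numbered 2 to 4, and from 14 arrays that leave out small spherical replicate 3 and filamentous replicate 1. The 3 contrasts with small spherical embryos lie to the right of 0 for PLAC1, PDPN and SFN under each choice, with PDPN the farthest at 2.12 to 2.26 over all arrays, and the GCM1 bars are the longest (SE of 1.20).

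The share of the log2 variance that lies between stages puts the 4 genes in the order PLAC1 (73.3%), PDPN (62.2%), SFN (33.0%) and GCM1 (23.2%), against a median of 19.6% over all probes. By this measure 6 probes were above PLAC1, 30 above PDPN, 239 above SFN and 416 above GCM1. Stage differences partly chose the 4 genes, so nothing is read from these ranks. The SD within stages was 0.40 on the log2 scale for PLAC1 and 0.46 for SFN, near the median of 0.38 over all probes. It was 0.85 for PDPN and 1.89 for GCM1, and 91.9% and 99.5% of probes had a lower one.

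Stage-free deviations were compared next, a measure from which the differences between stage means are removed. This comparison was chosen after the values had been seen, so its p-values are a description and not a test set in advance. Removing stage means need not remove the choice of the genes on stage differences. PLAC1, PDPN and SFN were each highest of their stage on small spherical replicate 3. On the second principal component that array read 2.58, nearer to the later arrays than the rest of its stage (9.72 to 14.2). What part this has in the correlations was not tested. For each gene the stage mean of log2 intensity was subtracted, and pairs of genes were correlated over the 16 arrays, with an exact two-sided permutation test within stages (331776 arrangements) and adjustment over the 6 pairs. PLAC1 and SFN deviated together (r = 0.85, exact p = 0.0104, adjusted p = 0.0312; rho = 0.69, exact p = 0.0193, adjusted p = 0.0578), with the same sign on 14 of 16 arrays. PDPN and SFN did so too (r = 0.76, exact p = 0.00274, adjusted p = 0.0164; rho = 0.67, exact p = 0.01, adjusted p = 0.0578), also on 14 of 16. For PLAC1 and PDPN r was 0.63 (exact p = 0.0199, adjusted p = 0.0397) and rho 0.58 (exact p = 0.0447, adjusted p = 0.0893), with the same sign on 12 of 16. By rank no pair passed after adjustment on the values as deposited. After quantile normalization all 3 pairs passed by both measures, with r of 0.92, 0.71 and 0.74 in the same order, and after median centring PLAC1 and PDPN no longer passed (r = 0.60, exact p = 0.0258, adjusted p = 0.0515) while PDPN and SFN passed by rank (rho = 0.69, exact p = 0.00737, adjusted p = 0.0442).

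On the deposited values of all 16 arrays, the relations of PLAC1 with PDPN and with SFN were much lower without a pair of arrays. That of PDPN with SFN was less so, but among the 12 arrays numbered 2 to 4 it fell the most. Small spherical replicate 3 deviated by 0.66 in PLAC1, 2.04 in PDPN and 0.76 in SFN on the log2 scale. Filamentous replicate 1 deviated by -0.86, -0.61 and -0.95. Without both, r was 0.30 for PLAC1 and SFN (exact p = 0.333, adjusted p = 0.666), 0.10 for PLAC1 and PDPN (exact p = 0.632, adjusted p = 0.842) and 0.59 for PDPN and SFN (exact p = 0.0947, adjusted p = 0.568). The 2 arrays farthest in PLAC1 are these same ones; after quantile normalization r without them was 0.71 for PLAC1 and SFN and 0.49 for PLAC1 and PDPN. For PDPN and SFN the farthest in PDPN were small spherical replicates 3 and 4, and without them r was 0.62. On the 12 arrays numbered 2 to 4 the coefficients were 0.84, 0.81 and 0.90, and none passed after adjustment (adjusted p = 0.168 for each, exact permutation). Without the 2 farthest of these 12, small spherical replicates 2 and 3 for PLAC1 and 3 and 4 for PDPN, they were 0.68 for PLAC1 and SFN, 0.59 for PLAC1 and PDPN and 0.17 for PDPN and SFN.

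No pair with GCM1 passed. Its r was 0.25 with PLAC1 (exact p = 0.579), 0.01 with PDPN (exact p = 0.94) and 0.09 with SFN (exact p = 0.838), with adjusted p of 0.868, 0.94 and 0.94. Its rho was 0.32 with PLAC1 (exact p = 0.312), 0.21 with PDPN (exact p = 0.38) and 0.24 with SFN (exact p = 0.448), with an adjusted p of 0.448 for each. Over all 1013 other probes, r with PLAC1 ran from -0.59 to 0.58 between the 5th and 95th percentiles. Between the same percentiles it ran from -0.48 to 0.46 with GCM1, -0.50 to 0.56 with PDPN and -0.55 to 0.56 with SFN. The medians were -0.02, -0.05, 0.01 and 0.01 in the same order. The range that unrelated probes would give was not computed, so how common shared deviations are is not read from these ranges. Of the probes compared with PLAC1, 1 had a higher r than SFN, and 40 had a higher r than PDPN. Of the probes compared with PDPN, 7 had a higher r than SFN.

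**Figure D3:**
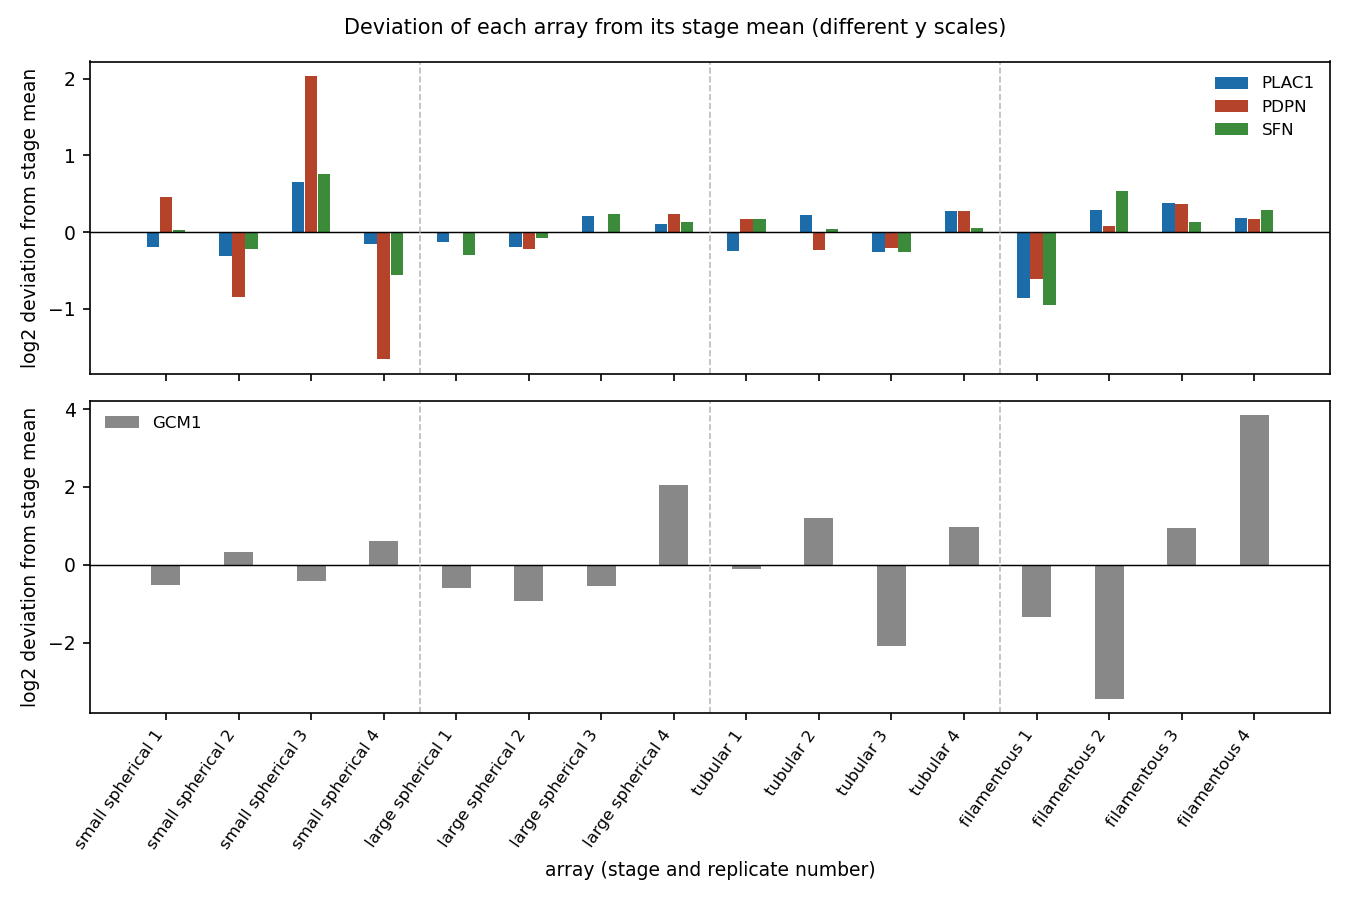
Deviation of log2 intensity from the stage mean (y axis) on each of the 16 arrays (x axis), for PLAC1, PDPN and SFN above and for GCM1 below, on different scales. Small spherical replicate 3 is high and filamentous replicate 1 low in PLAC1, PDPN and SFN, whereas the farthest GCM1 deviations are on filamentous replicates 4 (3.84) and 2 (-3.44).

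The genes with the most similar pattern were taken as the 3 highest Pearson coefficients of log2 intensity over the 16 arrays among 636 other genes. The points share arrays, stages and normalization, so the coefficients are a description. PLAC1 was most like TGFB3, a secreted growth factor (r = 0.94, rho = 0.88), STAR, the cholesterol carrier of mitochondria (r = 0.92, rho = 0.87), and ESR2, oestrogen receptor beta (r = 0.87, rho = 0.84). PDPN came 4th for PLAC1 (r = 0.86) and SFN 16th (r = 0.79), whereas GCM1 came 189th (r = 0.13). The median over genes was -0.07. Stage differences partly chose the 4 genes, so nothing is read from the ranks they hold for each other.

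PDPN was most like SMARCA4, a chromatin remodelling ATPase (r = 0.94, rho = 0.74), SAR1B, a GTPase of vesicle coats (r = 0.89, rho = 0.50), and NEK3, a protein kinase (r = 0.87, rho = 0.75). By rank the 3 nearest were NTAN1, PLAC1 and SLC10A1, none of them among the 3 by Pearson coefficient. SFN was most like CYB5B, a mitochondrial cytochrome b5 (r = 0.86, rho = 0.79), CARHSP1, an RNA-binding protein (r = 0.86, rho = 0.51), and PTGES, which makes prostaglandin E (r = 0.86, rho = 0.81).

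GCM1 was most like AMBP, the precursor of a plasma lipocalin and a protease inhibitor (r = 0.89, rho = 0.78), IL4, a cytokine (r = 0.87, rho = 0.91), and SLC15A2, a peptide transporter (r = 0.68, rho = 0.68). AMBP and IL4 are probes 3 and 19, near probe 8 of GCM1 in number. Like GCM1 they were dim: mean intensity in small spherical, large spherical and filamentous embryos was 6.81, 7.27 and 3.89 for AMBP, and 2.27, 7.03 and 5.13 for IL4. Each held exactly the same value as GCM1 on 5 of the 16 arrays. What part dimness, shared grid values and probe position have in this likeness was not tested.

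Other genes of the same biology were taken from 8 lists, of which 23 genes were measured. None passed at an adjusted p of 0.05 in any of the 6 contrasts or in the F test over stages (limma), where 0.394% of all probes passed in the F test, 0.394% in large and in tubular minus small spherical, 0.888% in filamentous minus small spherical and 0% in the other 3 contrasts. At an unadjusted p under 0.05, 5 of the 23 lay in filamentous minus small spherical, against 14.6% of all probes, and 4 in the F test, against 10.4%. In large minus small spherical there was 1 of 23 (9.37% of all probes) and in tubular minus small spherical 4 (11.4%). In tubular minus large spherical there was 1 (3.25%), in filamentous minus large spherical 1 (6.02%) and in filamentous minus tubular 0 (3.35%). The median of the 23 in filamentous minus small spherical was -0.03 with 10 positive, and the median of all 1014 probes was -0.03 with 45.6% positive.

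Of the trophectoderm epithelium list 4 of 20 genes were measured, and none passed. KRT19 averaged 93.6 ± 26.6 in small spherical embryos and 135 ± 30.6 in filamentous ones (log2 0.55 ± 0.23, adjusted p = 0.274, limma), KRT8 19.5 ± 4.60 and 23.9 ± 8.47 (0.28 ± 0.25), and KRT18 269 ± 39.9 and 250 ± 47.4 (-0.11 ± 0.18). CDH1, the epithelial cadherin, read 89.6 ± 17.2 and 84.3 ± 17.5 (-0.09 ± 0.21). The list's median was 0.09. The 20 trophoblast transcription factors listed beside GCM1 had no probe with 1 symbol.

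Among placental and trophoblast products 6 of 26 were measured, with 3 positive and none passing in filamentous minus small spherical. LGALS3, a galectin of epithelia, read 48.4 ± 10.5, 65.2 ± 6.50, 76.0 ± 10.3 and 68.6 ± 20.8 over the 4 stages, and its tubular minus small spherical difference was 0.67 ± 0.22 (adjusted p = 0.175, limma). CYP17A1, an enzyme of androgen synthesis, averaged 4.20 ± 2.0 in the small spherical and 20.2 ± 12.7 in the filamentous stage (2.12 ± 0.76, adjusted p = 0.197, limma). CYP19A1, the aromatase, read 173 ± 21.4 and 215 ± 35.4 (0.30 ± 0.18), and IGF2, the fetal growth factor, was dim at 5.96 ± 3.43 and 2.44 ± 1.38 (-1.38 ± 0.77). PAG6, a pregnancy-associated glycoprotein, differed by -0.15 ± 0.18 and IFNG, the interferon that pig trophoblast secretes, by -0.30 ± 0.23. For the list on GCM1 and cell fusion 1 of 17 genes was measured, the gap junction protein GJA1, at 37.6 ± 7.18 and 30.2 ± 10.6 (-0.36 ± 0.30).

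Of 15 listed partners of PDPN and proteins it acts through, 4 were measured, none passed, and 1 was positive in filamentous minus small spherical. RHOA, the GTPase through which podoplanin acts on actin, read 53.04 ± 14.9, 55.9 ± 20.6, 55.2 ± 12.8 and 73.9 ± 15.1 over the stages (0.50 ± 0.27). CD9, a tetraspanin, averaged 89.8 ± 21.6 in the small spherical and 68.2 ± 19.2 in the filamentous stage (-0.41 ± 0.24), ITGB1, an integrin chain, 25 ± 4.41 and 21.3 ± 3.74 (-0.23 ± 0.21), and ACTG1, a cytoplasmic actin, 196 ± 15.2 and 196 ± 46.4 (-0.03 ± 0.17).

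The relatives of SFN are of interest because cDNA probes can bind transcripts of similar sequence. Of the other 6 genes of the 14-3-3 family 3 were measured, and none passed. YWHAH, 14-3-3 eta, read 149 ± 27.3, 132 ± 25.3, 97.2 ± 18.9 and 89.6 ± 10.7 over the stages, opposite in sign to SFN (filamentous minus small spherical -0.72 ± 0.19, adjusted p = 0.097, limma). YWHAQ, 14-3-3 theta, read 110 ± 8.22 and 129 ± 12.8 (0.22 ± 0.15), and YWHAB, 14-3-3 beta, 24.6 ± 2.38 and 22.2 ± 11.8 (-0.33 ± 0.48). How far transcripts of the family bind the SFN probe was not tested. Of 18 partners of SFN in p53 signalling and the G2/M step 3 were measured: CCNB1 and CCNB2, the mitotic cyclins, differed by -0.50 ± 0.36 and 0.06 ± 0.20, and BAD, a pro-apoptotic protein that 14-3-3 proteins bind, by -0.01 ± 1.02.

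Of 17 genes listed for PLAC1 and growth factor signalling, ESR2 and the nuclear receptor coactivator NCOA2 were measured. ESR2 read 14.4 ± 13.9, 31.0 ± 11.6, 30.5 ± 13.0 and 38.0 ± 17.1 over the stages and did not pass (filamentous minus small spherical 1.73 ± 0.57, adjusted p = 0.17, limma). Without small spherical replicate 3 it was the 1 gene of the 23 to pass, in large and in filamentous minus small spherical. The share of all probes that passed without that array was not counted, so nothing is read from this call. NCOA2 read 60.2 ± 27.5 and 76.0 ± 29.2 (0.36 ± 0.32).

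**Figure D4:**
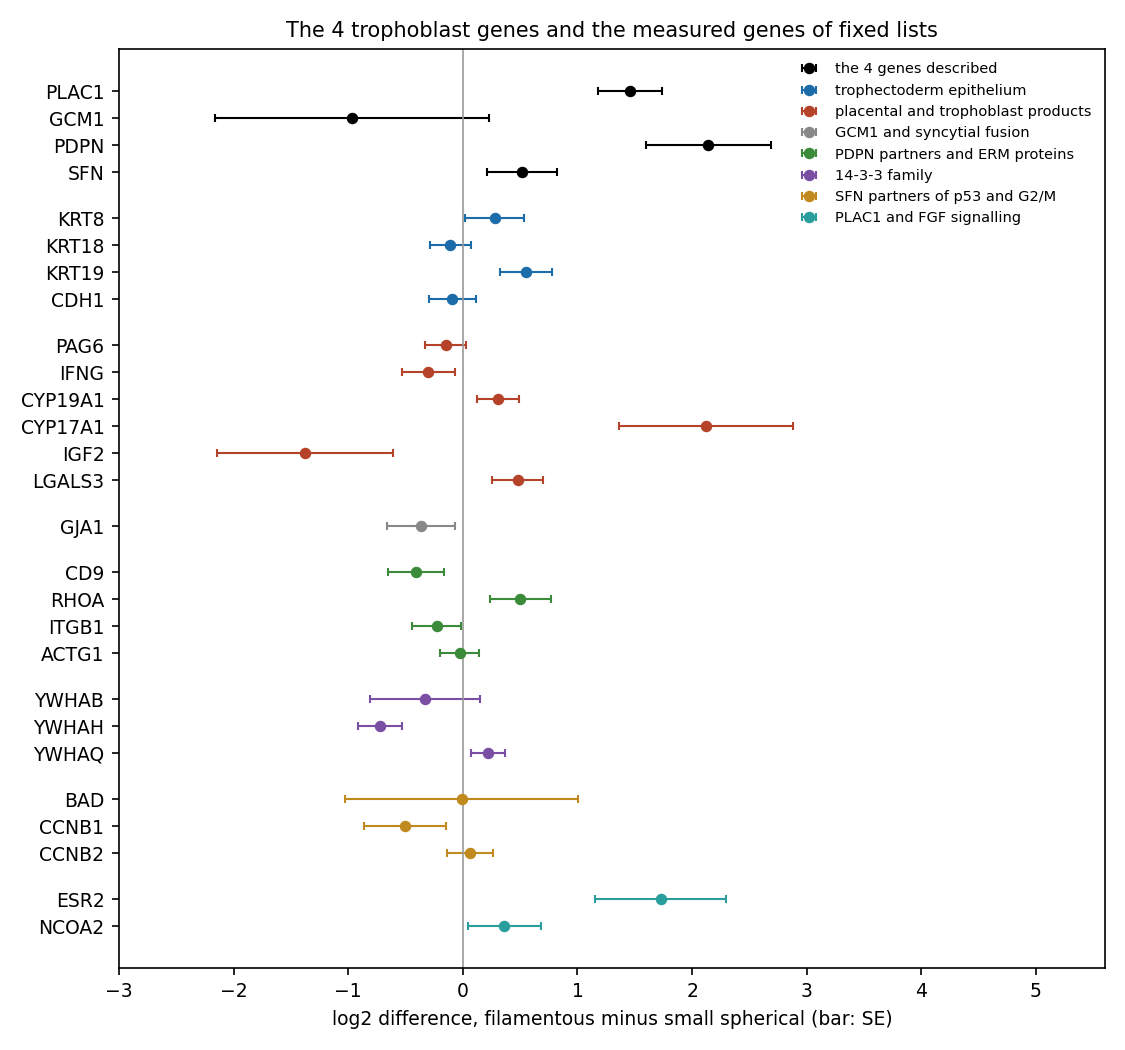
Log2 difference of filamentous minus small spherical embryos (x axis, bars are SE) for the 4 genes described and the 23 measured genes of the lists, coloured by list. PDPN (2.14) and PLAC1 (1.46) lie to the right with CYP17A1 (2.12) and ESR2 (1.73), and the epithelial genes KRT8, KRT18, KRT19 and CDH1 lie between -0.11 and 0.55.

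In whole embryos, fewer cells of a type and less RNA per cell cannot be told apart, so markers of other cells were set beside the 4 genes. For hypoblast and yolk sac endoderm 8 of 19 markers were measured, with a summed intensity over the 4 stages, in order, of 666 to 859, 727 to 826, 793 to 817 and 815 to 928. Its brightest members were LAMB1, FN1 and APOA1, and its members went both ways: from small spherical to filamentous embryos mean intensity was 264 and 216 for LAMB1, 147 and 191 for FN1 and 120 and 172 for APOA1. TF, transferrin, named after its values were seen, read 26.6 and 11.5 (log2 -1.37 ± 0.44, adjusted p = 0.158, limma). For mesoderm 6 of 14 were measured, brightest COL3A1, BMP4 and VIM, with sums of 248 to 310, 229 to 274, 251 to 286 and 265 to 338. VIM, the filament protein of mesenchyme, read 35.8, 28.9, 40.4 and 61.2 over the stages (filamentous minus large spherical 1.05 ± 0.28, adjusted p = 0.61, limma). In filamentous minus small spherical VIM differed by 0.72 ± 0.28, COL3A1 by 0.15 ± 0.17 and BMP4 by -0.07 ± 0.16. The median of the mesoderm list was 0.04 there with 3 of 6 positive, and 0.27 with 6 of 6 positive in filamentous minus large spherical. Between small and large spherical embryos the ranges of both lists overlapped, as did those of PDPN and SFN, while those of PLAC1 did not. In large minus small spherical the median log2 difference was -0.12 for hypoblast and yolk sac endoderm, with 3 of 8 positive. For mesoderm it was -0.23, with 2 of 6 positive.

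PDPN is also made by mesothelium and lymphatic endothelium, for which 2 of 9 markers were measured. PECAM1 and CDH5, both of endothelium in general, summed in the order of stages to 73.0 to 84.3, 61.3 to 82.7, 64.1 to 78.0 and 57.7 to 82.3, ranges that overlap throughout. The epiblast list had 1 measured marker of 12, DPPA5, at 3.10 to 15.5 in small spherical and 11.3 to 26.2 in filamentous embryos. Maternal blood had 1 of 11, CD3E, at 0.330 to 4.34 over all arrays, and maternal endometrium 2 of 10, ACP5 and PGR, with a sum of 22.2 to 32.9 in small spherical and 9.59 to 34.8 in filamentous embryos. No marker passed in any contrast. The lowest value of any probe was 0.120, so no marker could read 0. The lowest CD3E value, 0.330, equalled the array minimum of tubular replicate 1. The lowest PGR value, 0.517, equalled that of filamentous replicate 1. The part of other cell types in the levels of the 4 genes was not tested.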

How the data were processed

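The authors deposited 1 linear intensity per probe and array for 1015 probes on 16 arrays, and 0 columns were left out. Per the labels, the hybridised target was amplified RNA carrying phosphorus-32. Scanning, background subtraction and normalization are not given in the sources used here. Probes were named from the platform annotation: 676 with 1 symbol, 15 with several and 324 with none. The probe with the highest mean stood for a gene.

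Intensities were taken to log2 without a pseudocount or further normalization. One constant probe was left out, and limma 3.58.1 in R 4.3.3 was fitted to 1014 probes and 16 arrays with 1 mean per stage, 6 contrasts and an F test, with Benjamini-Hochberg adjustment over all probes. The fit was tested on simulated data. Stages and replicate numbers came from the titles. In large minus small spherical, same-numbered arrays deviated together (correlations of 0.219 to 0.495 for the 4 pairs). In each of the other 5 contrasts at least 1 pair was under 0.1, while the pairs of arrays numbered 1 ran from 0.270 to 0.469. The replicate block, an alternative, was 1 fit to all 16 arrays and covers all 6 contrasts. The values printed are from the fit without it. Permutation tests used scipy 1.17.1 and plots matplotlib 3.10.9.

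The members, lists and alternatives were chosen with earlier results of these data known. Named genes are the 4, the 3 most like each, up to 4 genes of each list with the largest F with any that passed, and up to 3 markers of each cell type with the highest mean; remaining list genes are named where the list is short. Alternatives tried were 3 further normalizations (array medians set equal, quantile, cyclic loess), an offset of 10, a filter on the dimmest 25% of probes, weights per array, a robust prior with a trended variance, a replicate block, a fit of the compared stages alone, the 12 arrays numbered 2 to 4, and arrays left out.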

Additional observations from a re-analysis of the deposited data

Results flagged for a closer look

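In the 16 groups of 4 arrays (4 genes in 4 stages), 3 held an array far from the other 3 by Dixon's criterion at its 95% level. The criterion was applied to linear intensities. Chance flags about 5% of groups where values are normally distributed, which 4 arrays cannot show. PLAC1 on small spherical replicate 3 read 18.4, with the other 3 arrays at 9.39 to 10.5 and a gap of 0.882 of the range. GCM1 on large spherical replicate 4 read 26.2, where the others read 3.33 to 4.34 (0.956 of the range). GCM1 on filamentous replicate 4 read 18.8, where the others read 0.120 to 2.52 (0.871 of the range). PDPN and SFN on small spherical replicate 3, at 163 and 154, did not reach the criterion.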

How the results depend on the processing

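PLAC1, PDPN and SFN were higher in each later stage than in small spherical embryos under every alternative run, with filamentous minus small spherical at 0.96 to 1.96 for PLAC1, 1.59 to 3.02 for PDPN and 0.33 to 1.08 for SFN; for GCM1 it ran from -2.24 to 0.18. The filter on the dimmest 25% of probes takes out PLAC1 and GCM1 and gives them no value. An offset of 10 moved PLAC1 by more than its replicate spread, to 0.66 for large, 0.88 for tubular and 0.96 for filamentous minus small spherical, and GCM1 to -0.34 for filamentous minus large spherical. Without both small spherical replicate 3 and filamentous replicate 1, filamentous minus small spherical moved to 1.96 for PLAC1, 3.02 for PDPN and 1.08 for SFN. In the same setting 1 listed gene (ESR2) passed in large, tubular and filamentous minus small spherical and in the F test. For this and the other alternatives the share of all probes that passed was not counted, so nothing is read from these calls. Leaving out 1 array gave filamentous minus small spherical differences of 1.33 to 1.74 for PLAC1 and counts of 0 to 1 in large and in filamentous minus small spherical, the 1 being ESR2 without small spherical replicate 3. With the replicate block the differences stayed as they were and their SE for PLAC1 was 0.24, and 0 listed genes passed; the block changed no call. Of the 3 genes most like PDPN, 0 were kept by rank and 1 on the 12 arrays numbered 2 to 4, where 1 was also kept for SFN. Deviations of GCM1 and PDPN correlated at -0.029 on the 12 arrays, and those of GCM1 and SFN at -0.14 there and at -0.068 without both named arrays. Except where an alternative's own construction shows it, the cause was not tested. The number of arrays, and for GCM1 and PLAC1 the unknown floor of dim probes, limit the precision.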

Other observations

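Probes numbered close to each of the 4 had a higher median r of deviations than probes in general, a difference that was not tested. Within 10 numbers on either side, the median r of deviations was 0.18 with PLAC1 (14 of 20 probes positive) and 0.16 with GCM1 (10 of 17). It was 0.25 with PDPN (15 of 20) and 0.11 with SFN (14 of 19). Over all 1013 other probes it was -0.02, -0.05, 0.01 and 0.01. Among the dimmest 25% of probes, the median r was -0.06 with PLAC1, 0.04 with GCM1, -0.11 with PDPN and -0.10 with SFN.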
